A study of Mus musculus with 4 samples.

Results

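The comparison described here sets splenic natural killer (NK) cells of wild-type mice given B16-F10 cells, a mouse melanoma line, against NK cells of wild-type mice that were not given them. Its members are all genes whose CPM, counts scaled to a common library size, averaged 5 or more over both wild-type libraries, which were 9638 of 35275 gene identifiers in the count table and of 21484 with a count in any library. The injected mice were wild-type C57BL/6 (B6), labelled WT here, and received the cells by the intravenous route 20 days before the spleen was taken, and the WT controls received none. The other 2 libraries of the series, injected and not injected in the same way, came from mice labelled Irf4-/-, a knockout label for the transcription factor IRF4. The sources used here describe the same steps for all groups. These were kit enrichment of splenic NK cells, a flow sort for CD3-negative and NK1.1-positive cells, and SMARTER mRNA libraries. Each of the 4 groups had 1 library, and the labels state neither how many mice stood behind it nor their age. B16-F10 cells given by vein are known to seed the lung, whereas the NK cells measured came from the spleen.

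With 1 library a group, a difference compares those libraries and not the conditions, and no test across animals was run. The size of a difference is given as the log2 ratio of CPM, WT injected over WT control, after adding a prior count of 2 to each library, with an exact (Clopper-Pearson) 95% interval that covers counting error only. PCR copies carry no molecular identifiers here and are not independent molecules, and the intervals do not allow for that. Total counts were 21104881 in WT control and 18640811 in WT injected, and lay between 15878159 and 18639455 in the libraries labelled Irf4-/-. A count of 0 allows up to 3 counts, or 0.143 CPM in WT control and 0.1615 in WT injected. For Irf4 itself the WT control library held 93 counts and the WT injected library 57, against 188 and 236 in the libraries labelled Irf4-/- control and Irf4-/- injected. The targeted gene was thus not lower under the knockout label, and counts over a whole gene do not show which part was deleted. The WT injected library stood apart from the other 3: over genes, the SD of log2 ratios was 0.364 to 0.401 in pairs with it and 0.235 to 0.333 in pairs without it. Every value below rests on that library, because there was no other of its group.

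NK cells are innate lymphocytes that kill stressed or transformed cells with perforin and granzymes and that secrete interferon gamma. In the mouse spleen they mature from cells with high interleukin 7 receptor and KIT towards cells with high CD11b, KLRG1, CX3CR1 and S1PR5, a course driven by the transcription factors T-bet, ZEB2 and Eomes. Transforming growth factor beta, glucocorticoids and chronic stimulation are known to restrain their division and effector functions.

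The label of NK cells was checked on 14 marker genes, all of which were measured. Ncr1, which encodes the activating receptor NKp46, had 1204 CPM in WT control and 1086 in WT injected. Klrb1c, which encodes NK1.1, had 1189 and 1416 CPM. The NK list as a whole held 14543 CPM in the WT control library and 13325 in the WT injected one, with 15691 and 15384 in the libraries labelled Irf4-/-. Counting intervals of the list lay below 0 in 11 genes and above 0 in 3, beside 32.6% and 28.7% of all measured genes. Its median log2 ratio was -0.18 in the WT pair and 0.03 in the pair labelled Irf4-/-. The lowest ratio of the list was that of Tbx21, the gene of T-bet, with 509 and 337 CPM (log2 ratio -0.59, interval -0.64 to -0.55). Of 8 melanocyte and B16 markers 0 were measured, with a sum of 8.04 and 5.17 CPM in the WT pair, and Tyr, Tyrp1, Dct and Mlana, which serve pigment synthesis, had 0 counts in all 4 libraries. Neutrophil markers were near 0, with 10 of 10 below the minimum and a sum of 0.809 and 1.45 CPM in the WT pair.

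Markers of other cell types differed within the WT pair and are given here because they touch later values. Red pulp macrophages, the iron-recycling phagocytes of the spleen, are marked by Vcam1, an adhesion molecule, Slc40a1, the iron exporter ferroportin, and Hmox1, which degrades heme. All 5 measured genes of that list of 8 were higher in WT injected. However, Vcam1, Slc40a1 and Hmox1 met the minimum of 5 CPM only through WT injected, and that rule favours higher ratios. Cd163 and Axl, the other measured genes, were above 5 CPM in both WT libraries, with log2 ratios of 0.92 and 0.78. Taken without a minimum, the whole list held 25.9 CPM in the control library and 75.3 in the injected one. The libraries labelled Irf4-/- held 30.7 and 48.8 CPM. The complement genes C1qa, C1qb and C1qc, below the minimum, had 36, 33 and 32 counts in WT control and 128, 128 and 119 in WT injected. They belong to the monocyte and macrophage list, of which Lyz2, a lysozyme gene, went the other way with a log2 ratio of -1.33. B cell markers went the other way, at 81.7 CPM over 12 genes in the control library and 33.8 in the injected one, against 83.9 and 57.5 in the libraries labelled Irf4-/-. In the WT pair the 12 monocyte and macrophage markers summed to 139.8 and 171 CPM, of which Ly6c2 made up 109 and 115. The 13 T cell markers summed to 548 and 536 CPM there. Of the 936 and 711 CPM of 8 dendritic cell markers Itgax, an integrin that NK cells also express, made up 895 and 679.7. Of the 246 and 199.6 CPM of 9 erythroid markers Car2, a carbonic anhydrase, made up 207 and 179.5, and the globin genes Hba-a1 and Hbb-bs had log2 ratios of -1.17 and -0.85. The part of such cells in the differences below was not tested, and in bulk RNA fewer cells of a type and less RNA per cell cannot be told apart.

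Relative to WT control, 102 of the 9638 genes stood 2-fold or more higher in WT injected with a counting interval above 0 (1.06%), and 80 stood 2-fold or more lower with an interval below 0 (0.830%). At 1.5-fold, the size used for gene lists below, 403 were higher (4.18%) and 408 lower (4.23%). All counts of list members given below are to be read beside these shares. The median log2 ratio of all measured genes was -0.02. Differences of any size, beyond counting error, were far more common: 2763 genes had an interval above 0 (28.7%) and 3144 an interval below 0 (32.6%). Interval counts of lists are likewise to be read beside these. Low levels held many of the large ratios: 44 of the 102 higher and 36 of the 80 lower genes were among the 1042 genes between 5 and 10 CPM, and 24 and 16 more among the 1411 between 10 and 20. A gene near the minimum of 5 CPM can meet it through its higher library alone, and that rule favours large ratios in both directions. Of the 102 higher genes WT injected was the highest of the 4 libraries in 91 and WT control the lowest in 66. Of the 80 lower genes WT injected was the lowest of 4 in 72 and WT control the highest in 38.

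**Figure D1:**
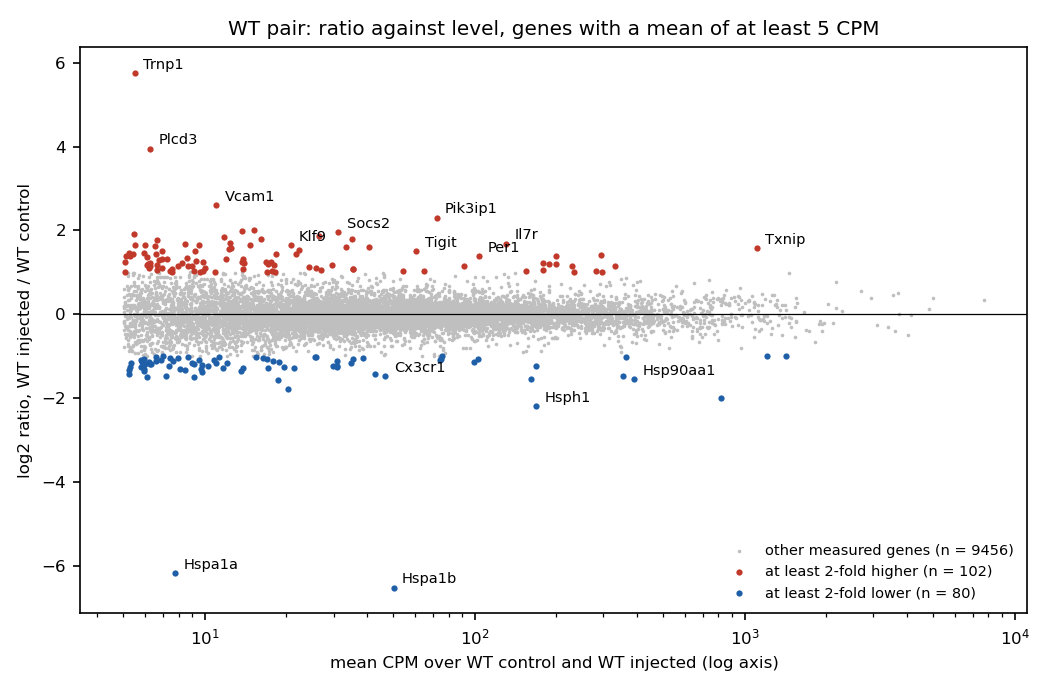
Each point is 1 of the 9638 measured genes, with its mean CPM over the WT pair on a log axis and its log2 ratio of WT injected over WT control, and the 102 genes at least 2-fold higher are red and the 80 at least 2-fold lower blue. Hspa1b and Hspa1a lie far below all other genes, Trnp1 and Plcd3 above them, and most genes stay near 0 at every level.

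The log2 ratio furthest from 0 belonged to a heat shock gene, of a group that encodes chaperones that fold proteins and that cells induce within minutes of stress. Hspa1b, an inducible HSP70, was counted 2084 times in WT control and 18 times in WT injected, or 99.2 and 0.969 CPM (log2 ratio -6.53, interval -7.43 to -6.01). Its neighbour Hspa1a, another inducible HSP70, had 325 and 2 counts. The count of Hspa1a in WT injected is under the limit of 3 counts, its ratio of -6.18 depends on the prior count, and its counting interval is -10.22 to -5.30. These genes are near-identical copies, with 62.3% of the 50-base words of Hspa1b also in Hspa1a, and their split of reads is uncertain. Per length of transcript Hspa1b was the more abundant, at 35.2 FPKM in WT control where Hspa1a had 5.19. Both were already lower in the uninjected library labelled Irf4-/-, where Hspa1b had 388 counts, and lower still in its injected partner, with 19.

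The promoters of this pair are shown because the genes gave the lowest ratios and are regulated by heat shock factor, which binds repeats of the letters GAA. Each is the 250 bases before the transcription start from RefSeq on GRCm38.p6, minus strand, at chr17:34959239-34959488 for Hspa1b and chr17:34972157-34972406 for Hspa1a, with capitals at the match to GAANNTTC, which reads the same on both strands.
Hspa1b: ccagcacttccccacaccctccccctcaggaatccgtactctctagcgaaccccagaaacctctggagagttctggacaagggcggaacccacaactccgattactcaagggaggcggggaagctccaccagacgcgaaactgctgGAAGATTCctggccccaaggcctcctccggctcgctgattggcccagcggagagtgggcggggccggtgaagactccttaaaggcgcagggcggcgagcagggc
Hspa1a: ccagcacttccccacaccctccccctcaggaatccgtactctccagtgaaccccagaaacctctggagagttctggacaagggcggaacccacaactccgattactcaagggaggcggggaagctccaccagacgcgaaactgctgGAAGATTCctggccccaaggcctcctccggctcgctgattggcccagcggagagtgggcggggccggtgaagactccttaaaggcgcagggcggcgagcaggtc
The windows differed at 3 of 250 bases and shared 1 match, 104 bases before the start. GAANNTTC was found in 6.69% of the 32851 promoters in the table, in 5.84% of measured genes with a promoter there, and in 8 of 30 genes of the heat shock list (26.7%). Those 8 genes, Hspa1a and Hspa1b included, had a median log2 ratio of -0.93, and the rest of the list -0.42. Over all measured genes with a promoter there, the median was -0.004 with a match and -0.025 without one. A match is a description of these letters and not evidence of a bound factor.

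Most other chaperone genes were lower too, by smaller amounts. Of 37 measured genes of 40 in the list, Hspa1b and Hspa1a included, 18 were at least 1.5-fold lower and 0 higher, beside the 4.23% and 4.18% of all genes given above, and the median log2 ratio was -0.53. Counting intervals lay below 0 in 34 of the 37 and above 0 in 1. Hsph1, a nucleotide exchange factor of HSP70, had 277 CPM in WT control and 60.3 in WT injected (-2.19, -2.29 to -2.10). Hsp90aa1, the inducible cytosolic HSP90, had 579 and 199 CPM (-1.54). The HSP40 cochaperones Dnajb1 and Dnaja1 had ratios of -1.54 and -1.48. For all 6 genes WT control was the highest of the 4 libraries, and WT injected was the lowest for all but Dnaja1. In the pair labelled Irf4-/- the list had a median of -0.31, with Hsph1 at -1.22, Hsp90aa1 at -0.74, Dnajb1 at -1.15 and Dnaja1 at -1.31. Cirbp, a cold-inducible RNA-binding protein gene chosen after its values were seen, was higher, with 110.3 and 290.3 CPM (1.4), and 115 and 179 in the libraries labelled Irf4-/-. The sources used here give no handling temperature or time, and their part was not tested.

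Chaperones of the endoplasmic reticulum, which fold secreted and surface proteins, were also lower in WT injected while their median in the other pair was near 0. Of 26 measured members 4 were at least 1.5-fold lower and 0 higher, with a median of -0.26 in the WT pair and 0.05 in the pair labelled Irf4-/-. Calr, the chaperone calreticulin, had 451 CPM in WT control and 243 in WT injected (-0.89, -0.94 to -0.84), against 407 and 475 in the libraries labelled Irf4-/-. Hspa5, the HSP70 of this compartment, had 468 and 298 CPM (-0.65). Hsp90b1, its HSP90, had 415 and 266 (-0.64). For all 3 genes WT injected was the low library and the other 3 lay close together.

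Genes of cell division were mostly lower in WT injected. Among 57 measured genes of mitosis and the G2/M phase, 39 stood at least 1.5-fold lower in WT injected and 0 higher, the median log2 ratio was -0.79, and 49 counting intervals lay below 0 and 2 above. With a minimum of 20 CPM in place of 5, the median of that list was -0.49. Of 49 measured genes of DNA replication and S phase 19 were at least 1.5-fold lower and 0 higher, with a median of -0.49 and 40 intervals below 0 and 1 above. Medians in the pair labelled Irf4-/- were -0.44 and -0.21, with 10 and 3 genes at least 1.5-fold lower (1.20% of the 9697 genes measured in that pair).

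Among replication genes Cdc6, which loads the replicative helicase onto origins, had the largest ratio, with 284 counts in WT control and 87 in WT injected (-1.51, -1.89 to -1.18). The S phase transcription factors E2f1 and E2f8 had ratios of -1.28 and -1.32. Rrm2, a subunit of ribonucleotide reductase, had 41.9 CPM in WT control and 17.7 in WT injected, and Uhrf1, which keeps DNA methylation after replication, had 43.7 and 18.2. In these genes the libraries labelled Irf4-/- lay near or above WT control, at 58.8 and 41.8 CPM for Rrm2 and 46.6 and 38.4 for Uhrf1, so that WT injected was the low library. Among mitotic genes Top2a, the topoisomerase that untangles sister chromatids, had 139 CPM in WT control and 66.2 in WT injected (-1.07, -1.17 to -0.98). Spc24 and Nuf2, of the kinetochore complex that holds microtubules, had ratios of -1.38 and -1.10, Esco2, a cohesin acetyltransferase, -1.32, and Cdk1, the kinase that starts mitosis, -1.17. The B cell marker sum given above was lower in WT injected as well, and its part in these values was not tested.

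Promoters of Cdc6 and Uhrf1 are shown as 2 replication genes with a match to a site of E2F, the factor family that switches on S phase genes. They are the 250 bases before the start from RefSeq on GRCm38.p6, plus strand, at chr11:98907901-98908150 and chr17:56304063-56304312, with the match in capitals, and for Uhrf1, which had 2 starts in the table, the start with a match is printed.
Cdc6: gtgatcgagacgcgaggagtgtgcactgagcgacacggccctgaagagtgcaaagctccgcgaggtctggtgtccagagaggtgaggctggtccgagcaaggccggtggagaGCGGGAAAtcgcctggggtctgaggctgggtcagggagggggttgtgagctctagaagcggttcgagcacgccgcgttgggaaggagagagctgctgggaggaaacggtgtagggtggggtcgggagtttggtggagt
Uhrf1: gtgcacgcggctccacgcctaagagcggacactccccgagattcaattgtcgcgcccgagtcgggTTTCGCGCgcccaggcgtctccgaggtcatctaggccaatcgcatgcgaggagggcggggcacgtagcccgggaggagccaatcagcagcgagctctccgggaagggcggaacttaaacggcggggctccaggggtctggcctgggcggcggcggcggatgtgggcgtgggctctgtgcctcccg
The letters searched on both strands were TTTGGCGC, TTTCGCGC, TTTCCCGC and TTTGCCGC. The match of Cdc6 is TTTCCCGC on the opposite strand, 138 bases before the start, and that of Uhrf1 lies 185 bases before it. A match stood in 1.86% of all 32851 promoters, in 4.37% of measured genes and in 9 of 41 replication genes (22%). Replication genes with a match had a median log2 ratio of -0.49 and those without one -0.52.

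Few histone genes, which cells make during S phase, could be measured. Of 64 replication-dependent histone genes 7 were measured, and 3 of these were at least 1.5-fold higher and 0 lower, with 4 counting intervals above 0 and 1 below and a median of 0.38 in the WT pair and -0.63 in the other pair. Hist1h1e, a linker histone, had 186 counts in WT control and 352 in WT injected (1.09, 0.84 to 1.36), but 108 and 64 in the libraries labelled Irf4-/-. H1f0, the linker histone of resting cells, had 11.7 CPM in WT control and 31.8 in WT injected (1.44). Most mRNAs of the replication-dependent histones have no poly(A) tail, and the part of that in these values was not tested.

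The largest ratios upward were spread over genes of different known functions. Trnp1, a nuclear protein of neural progenitors, had 2 counts in the control library, under the limit of 3, and 203 in WT injected (5.77, 4.97 to 9.90), and 8 and 43 in the libraries labelled Irf4-/-. Plcd3, a phospholipase C, had 14 and 221 counts in the WT pair (3.96, 3.38 to 5.05) and 30 and 126 in the other pair. In both genes the injected library was the higher of its genotype and WT injected the highest of the 4. Both met the minimum of 5 CPM only through WT injected, at 0.095 and 0.67 CPM in WT control, and that rule favours higher ratios. Vcam1, named above among the macrophage markers, had 64 and 354 counts (2.60, 2.26 to 3.05). Dmrta1, a transcription factor, had 5.95 CPM in WT control and 24.4 in WT injected (2.02). Serpina3f, a serine protease inhibitor, had 15.6 and 54.4 CPM (1.79), and its level in WT control was the lowest of the 4 libraries, with 35.6 and 60.5 in the others. Fam184a stood at 19.9 and 61.0 CPM (1.61) and Ccdc88a, the actin-binding protein girdin, at 16.6 and 50.4 (1.60). Of the 50 genes named for size, 21 are overlapped by another annotated gene, among them Plcd3, Vcam1, Pik3ip1 and Cx3cr1. The sources used here do not say whether counting used strand, and their counts could include reads of the neighbour.

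**Figure D2:**
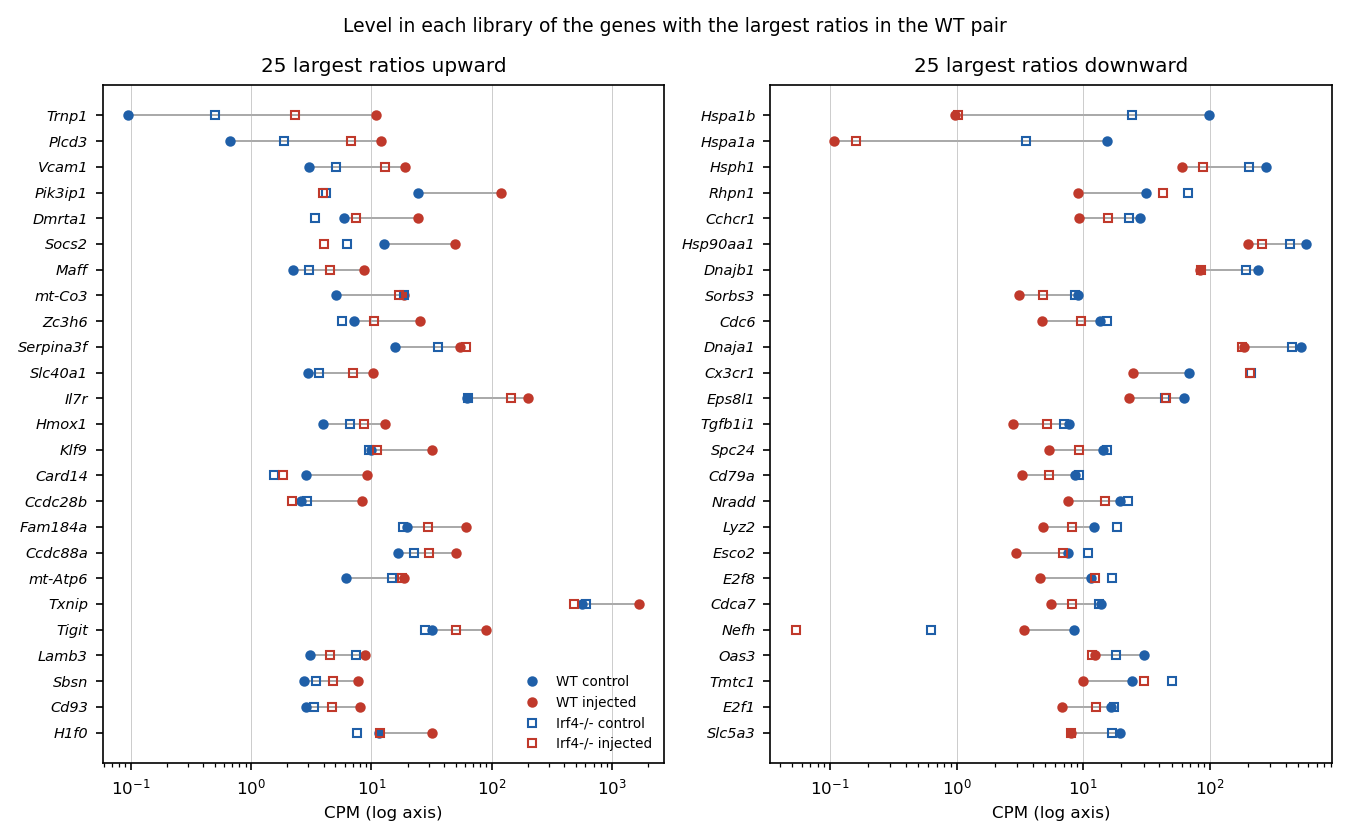
Points give CPM on a log axis in each of the 4 libraries for the 25 protein-coding genes with the largest log2 ratios upward (left) and downward (right) in the WT pair, with filled circles for WT, open squares for the label Irf4-/-, blue for control and red for injected. Il7r, Tigit and Plcd3 have both injected libraries above both controls, Txnip and Socs2 have WT injected alone above the other 3, and Cx3cr1 has both WT libraries below those labelled Irf4-/-.

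Genes of the phosphoinositide 3-kinase (PI3K) and FOXO axis included several well-counted genes with higher values. PI3K signalling keeps FOXO transcription factors out of the nucleus, and FOXO factors drive genes of quiescence and survival such as Il7r, of metabolism such as Txnip and Irs2, and of cell death such as Bcl2l11 and Bbc3. Of 42 measured members 6 were at least 1.5-fold higher and 0 lower, beside the 4.18% and 4.23% of all genes. The list median was 0.06, so that most of the list stood near 0. Pik3ip1, an inhibitor of PI3K, had 509 counts in WT control and 2233 in WT injected (2.31, 2.17 to 2.45), whereas the libraries labelled Irf4-/- held 67 and 74. Txnip, which restrains glucose uptake and binds thioredoxin, had 11726 and 30888 counts, or 558 and 1663 CPM (1.58, 1.54 to 1.61), and 612 and 479 CPM in the other pair. Irs2, an insulin receptor adaptor, had 16.5 and 35.3 CPM in the WT pair (1.10) and 15.5 and 13.3 in the other. For these 3 genes WT injected was above the other 3 libraries. Il7r, a subunit of the interleukin 7 receptor, had 1301 and 3709 counts in the WT pair and 1016 and 2685 in the other, so both injected libraries were above both controls. The factor genes, chosen after their values were seen, were close to level, with Foxo1 at -0.03 (-0.13 to 0.07) and Foxo3 at 0.02 (-0.06 to 0.10). Klf2, a FOXO target of quiescence, was lower, at -0.47.

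Genes of the BCL2 family set the threshold of apoptosis. They included 4 of 14 measured members at least 1.5-fold higher and 1 lower, beside the 4.18% and 4.23% of all genes. The proapoptotic BH3-only genes Bmf, Bcl2l11 and Bbc3 had 17.5, 154 and 70.7 CPM in WT control and 36.6, 311 and 131 in WT injected. The antiapoptotic gene Bcl2 had 259 and 471 CPM (0.86, 0.81 to 0.91). All 4 were higher in WT injected than in any other library. Mcl1, the survival factor NK cells depend on, went the other way with 614 and 468 CPM (-0.39), and Pmaip1, another BH3-only gene, was at -0.74.

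Known glucocorticoid targets included many genes with higher values in WT injected. Glucocorticoids act through a nuclear receptor to induce genes such as Tsc22d3, Fkbp5, Per1 and Klf9 in lymphocytes. Of 19 measured targets 9 were at least 1.5-fold higher and 1 lower, beside the 4.18% and 4.23% of all genes. The median was 0.51 in the WT pair and 0.07 in the pair labelled Irf4-/-. The list was split, with 11 counting intervals above 0 and 8 below in the WT pair. In the pair labelled Irf4-/- 2 were at least 1.5-fold higher and 4 lower. Klf9, a transcription factor, had 9.99 CPM in WT control and 31.7 in WT injected (1.65, 1.43 to 1.90), against 9.61 and 11.1 in the other pair. Fkbp5, a chaperone that limits the receptor, had 116 and 241 CPM (1.06), and 109 and 211 in the other pair, so both injected libraries were above both controls. Tsc22d3, an anti-inflammatory leucine zipper protein, had 197 and 397 CPM (1.01) in WT but 242 and 151 in the other pair, which is the opposite order. Sgk1, a kinase induced by glucocorticoids in many tissues and named here as the lower member after its value was seen, had 101 and 50.2 CPM (-1.0), and was lower in the other pair too (-0.77). The list shares Il7r and Pik3ip1 with the FOXO list and Per1 with the clock list.

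The circadian clock is a feedback loop in which PER and CRY proteins repress the factors that drive their genes. Of 15 measured clock genes 5 were at least 1.5-fold higher and 0 lower, beside the 4.18% and 4.23% of all genes. The median was 0.29 in the WT pair and 0.07 in the other, and 11 counting intervals of the WT pair were above 0 and 1 below. Per1 had 57.4 CPM in WT control and 150.5 in WT injected (1.39, 1.29 to 1.49), with 53.3 and 56.9 in the libraries labelled Irf4-/-. Tef, a PAR-type output factor, had 92.7 and 173 CPM (0.90), Per3 8.94 and 15.8 (0.82), and Nr1d2, which encodes the repressor REV-ERB beta, 53.8 and 85.3 (0.66). In Per1, Tef and Nr1d2 WT injected was the highest library and the other 3 lay close together. The sources used here do not give the hour at which each spleen was taken, and its part was not tested.

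The promoter of Per1 is shown for its E-box, CACGTG, the letters bound by the clock activators, which read the same on both strands. It is the 250 bases before 1 of 2 starts of the gene in RefSeq on GRCm38.p6, plus strand, chr11:69098699-69098948, with the match in capitals, 166 bases before the start.
Per1: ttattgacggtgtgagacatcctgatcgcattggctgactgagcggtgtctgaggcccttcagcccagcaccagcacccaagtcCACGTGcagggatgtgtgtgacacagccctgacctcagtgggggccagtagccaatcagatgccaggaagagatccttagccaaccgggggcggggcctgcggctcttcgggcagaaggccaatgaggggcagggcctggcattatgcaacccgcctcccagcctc
CACGTG stood in 6.02% of the 32851 promoters, in 10.3% of measured genes and in 3 of 12 clock genes, which were Cry1, Per1 and Tef. Clock genes with the match had a median log2 ratio of 0.90, those without it 0.29, and all measured genes with it -0.01.

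Late maturation genes were mostly lower in WT injected, by small amounts. Of 24 measured genes 5, namely Cx3cr1, Klrg1, Lgals1, S1pr5 and Tbx21, were at least 1.5-fold lower and 0 higher, with a median of -0.37 (-0.11 in the pair labelled Irf4-/-) and 18 counting intervals below 0 and 3 above. Cx3cr1, the receptor for fractalkine on mature NK cells, had 1442 counts in WT control and 459 in WT injected (-1.47, -1.63 to -1.32), while the libraries labelled Irf4-/- held 3409 and 3867. Klrg1, an inhibitory lectin receptor, had 122 and 70.2 CPM (-0.80), Itgam, which encodes CD11b, 764 and 515 (-0.57), and S1pr5, the receptor by which NK cells leave lymphoid organs, 520.1 and 339 (-0.62). Zeb2, a factor of terminal maturation, was at -0.56, beside Tbx21 above. For Zeb2, S1pr5 and Tbx21 the WT injected library was the low one of the 4. Prdm1, which encodes Blimp-1, went the other way within the list, with 88.2 and 129.9 CPM (0.56).

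Genes of early or stem-like NK cells and of type 1 innate lymphoid cells had higher members in WT injected. Of 23 measured early genes 6 were at least 1.5-fold higher and 0 lower, beside the 4.18% and 4.23% of all genes. The list median was 0.07 in the WT pair and 0.34 in the other pair. In the WT pair 10 counting intervals lay above 0 and 6 below. Cd93, 1 of the 6 higher genes, had 2.85 CPM in WT control and met the minimum of 5 CPM only through WT injected. Kit, the receptor of stem cell factor, had 87.0 CPM in WT control and 169.7 in WT injected (0.96, 0.88 to 1.05), and 98.4 and 171 in the libraries labelled Irf4-/-. Emb, an immunoglobulin superfamily protein, had 94.9 and 187 CPM (0.97), and Slamf6, a receptor of less differentiated lymphocytes, 22.7 and 47.9 (1.07). Both injected libraries were above both controls for Il7r, Kit and Emb. Of 20 measured genes of type 1 innate lymphoid cells and tissue residency 7 were at least 1.5-fold higher and 0 lower. The median was 0.19, and 0.40 in the other pair, and 8 counting intervals of the WT pair lay above 0 and 6 below. The 7 included Rora, a nuclear receptor, at 0.78, Tmem176b at 0.92, and Ahr, the aryl hydrocarbon receptor, at 0.60. Il2ra, another of the 7, met the minimum of 5 CPM only through WT injected. Rgs1, also among them, was lower in the other pair (-0.60).

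Receptors of NK cells stood on both sides of 0. Of 39 measured activating and inhibitory receptors 3 were at least 1.5-fold higher and 3 lower, beside the 4.18% and 4.23% of all genes. Their median was 0.05. Klra10, a Ly49 receptor, had 101 CPM in WT control and 48.5 in WT injected (-1.06, -1.17 to -0.95), but genes of this family are near copies of each other and their reads may be shared. Klrb1b and Klrb1a, lectin-like receptors of the NK1.1 family, were at 0.67 and 0.61, and Slamf7, an activating receptor of lymphocytes, was at -0.64. Tigit, a checkpoint receptor that binds CD155 on tumour cells, had 668 counts in WT control and 1671 in WT injected (1.5, 1.37 to 1.63), with 443 and 947 in the other pair. It was the 1 gene of 27 measured checkpoint and suppressive genes at least 1.5-fold higher, and 0 were lower (median 0.07). Lag3, another checkpoint receptor, was at 0.42 in WT and 0.50 in the other pair, with higher levels in both libraries labelled Irf4-/-.

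The cytotoxic machinery was close to level, with 3 of 27 measured genes at least 1.5-fold higher, 1 lower and a median of -0.04. Gzma, a granzyme, had 3741 CPM in WT control and 3051 in WT injected (-0.29), and Prf1, perforin, 1080.0 and 878 (-0.30). Rab27a, the GTPase that docks granules for release, had 142 and 318 CPM (1.16, 1.10 to 1.23) and was higher in the other injected library too (0.65). Of 14 measured cytokine and chemokine genes 0 were at least 1.5-fold higher and 1 lower (median -0.20), which was Ifng, interferon gamma, with 62.2 and 40.2 CPM (-0.63, -0.76 to -0.50). Xcl1, a chemokine for dendritic cells, was at -0.45 in WT and 0.42 in the other pair.

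Among 42 measured cytokine receptors and their inhibitors 5 were at least 1.5-fold higher and 2 lower, beside the 4.18% and 4.23% of all genes. Their median was 0.02. Socs2, a feedback inhibitor of JAK-STAT signalling, had 268 counts in WT control and 925 in WT injected (1.96, 1.77 to 2.17), and 100 and 75 in the libraries labelled Irf4-/-. Ifngr1, a chain of the interferon gamma receptor, had 534 and 945 CPM (0.82), and its level in WT injected was the highest of the 4. Il2ra, which makes the interleukin 2 receptor high-affinity, had 81 and 161 counts (1.15), below both libraries labelled Irf4-/-, with 286 and 554. At 3.85 CPM in WT control, Il2ra met the minimum of 5 CPM only through WT injected. Ptpn6, the phosphatase SHP-1 of inhibitory receptors, was lower, with 199 and 109 CPM (-0.87). Of 37 chemokine receptors, integrins and egress genes 3 were at least 1.5-fold higher and 3 lower (median -0.08). Cxcr4, which retains cells in bone marrow and spleen, had 220.0 and 360.1 CPM (0.71), and Itgb7, a gut-homing integrin chain, 596 and 364 (-0.71).

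Of 44 measured interferon-stimulated genes 3 were at least 1.5-fold lower, a share near the 4.23% of all genes, and 1 was higher. Counting intervals lay below 0 in 29 and above 0 in 4, beside 32.6% and 28.7% of all genes. The median was -0.26 (-0.12 in the other pair). Oas3, an antiviral sensor of double-stranded RNA, had 30.3 CPM in WT control and 12.4 in WT injected (-1.28, -1.52 to -1.07), and WT control was the highest of the 4 libraries, since those labelled Irf4-/- had 18.2 and 11.8. Ifit3 and Isg15, antiviral effectors, were at -1.02 and -0.71, and Slfn5 was the higher member, at 0.59. Of 31 immediate early genes 3 were at least 1.5-fold higher and 0 lower (median 0.12), namely Maff, Tnfaip3 and Dusp1. Maff, a small MAF factor, had 47 and 162 counts (1.91). At 2.24 CPM in WT control, Maff met the minimum of 5 CPM only through WT injected, and that rule favours higher ratios. Tnfaip3, the NF-kB inhibitor A20, had 121 and 279.6 CPM (1.20, 1.14 to 1.27), and the other 3 libraries lay between 116 and 121. Of 29 NF-kB factors and inhibitors 2 were at least 1.5-fold higher, Tnfaip3 and Birc3, and 1, Nfkbid, was lower (median -0.07). MHC class I and proteasome genes had 1 of 25 higher and 1 lower (median -0.09), and MHC class II genes 0 of 8 either way (median 0.00).

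The medians of metabolic lists stood near 0, and the list counts of this paragraph stand beside the 4.18% and 4.23% of all genes. Of 26 glycolysis genes 1 was at least 1.5-fold higher and 1 lower (median 0.01), and the higher one, Pdk1, a kinase that shuts off pyruvate dehydrogenase, had 22.7 CPM in WT control and 48.1 in WT injected (1.08, 0.92 to 1.24). Of 77 nuclear genes of oxidative phosphorylation 0 were higher and 1 lower (median -0.06). Sterol and fatty acid genes had 1 of 27 higher and 1 lower (median -0.06), with Abca1, the cholesterol exporter, at 101 and 207 CPM (1.03). The list of MYC, ribosome biogenesis and nutrient transport genes had 5 of 36 lower, beside 4.23% of all genes, and 0 higher (median -0.11). The lower ones included Mxd3 at -1.20 and Srm, spermidine synthase, at -0.73. Hypoxia and oxidative stress genes had 1 of 24 higher, the red pulp marker Hmox1, and 0 lower (median 0.01). The list of p53 targets and growth arrest genes had 1 of 23 lower, the antiproliferative gene Tob1 at -0.89, and 0 higher (median -0.13). Notch pathway genes had 2 of 23 higher and 1 lower (median 0.11), with Maml3, a coactivator, at 1.27 and Hes1, the classical target, at -1.11.

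**Figure D3:**
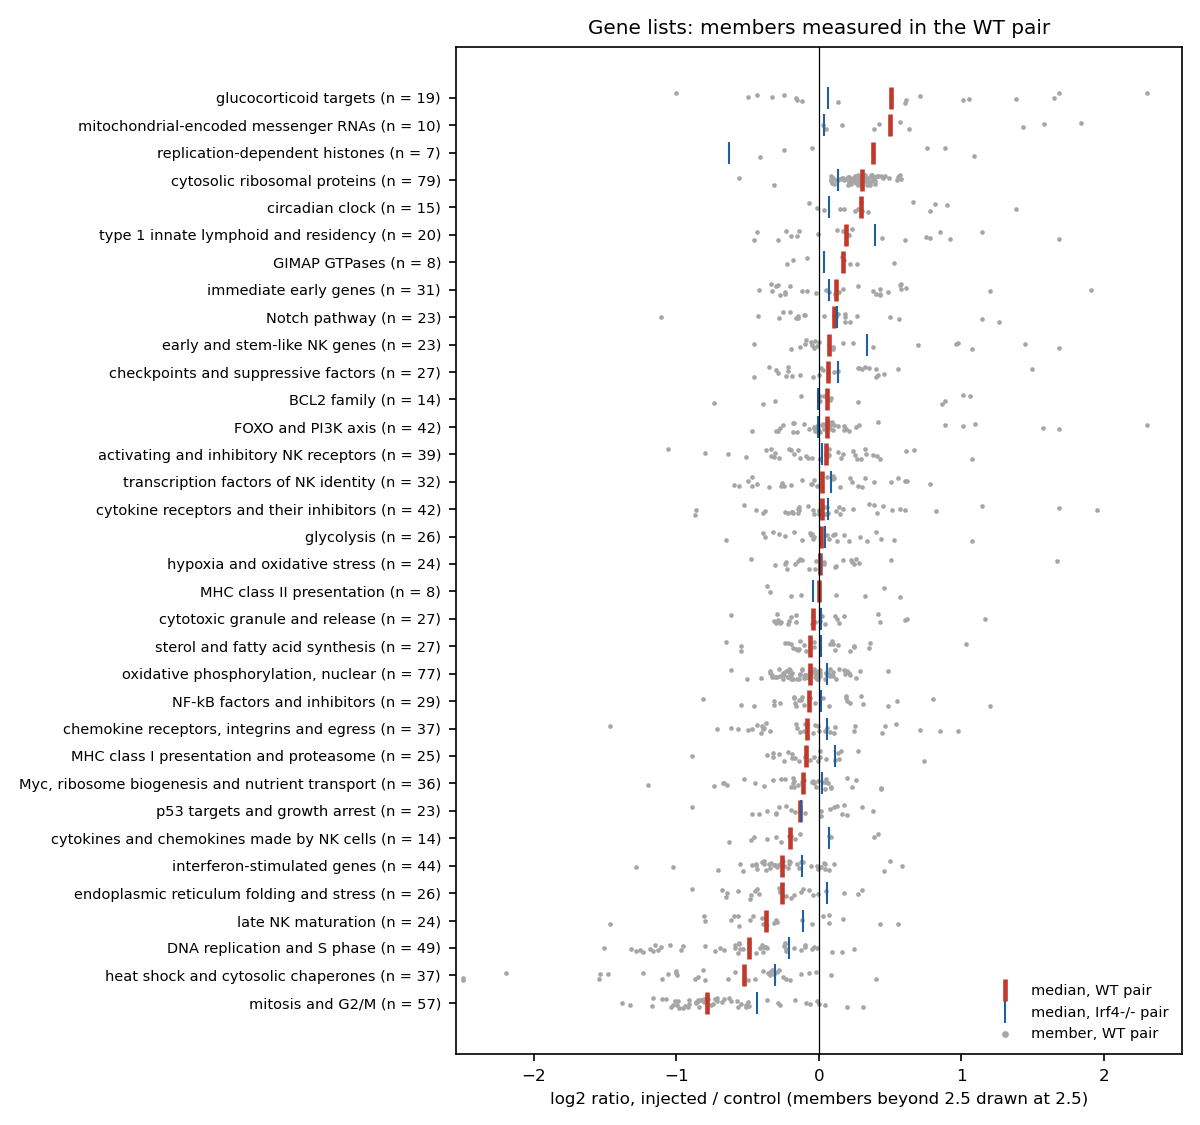
Grey points are the log2 ratios of WT injected over WT control for measured members of each of the 34 pathway lists, with the list median of the WT pair as a thick red mark and that of the pair labelled Irf4-/- as a thin blue mark. Mitosis, heat shock, replication and late maturation lists have the lowest WT medians (-0.79, -0.53, -0.49 and -0.37), and glucocorticoid targets the highest (0.51).

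Ribosomal protein genes were a little higher in WT injected. Of 79 measured genes 77 had a counting interval above 0 and 2 below, 0 reached 1.5-fold, and the median was 0.30 in the WT pair and 0.14 in the other. Together they held 5.17% of counts in the control library and 6.40% in the injected one, against 4.62% and 5.03% in the libraries labelled Irf4-/-. Mitochondrial messenger genes had a median of 0.50 over 10 measured genes and 0.04 in the other pair. In mt-Co3, mt-Atp6 and mt-Co2, respiratory chain and ATP synthase subunits, WT control was the low library: mt-Co3 was counted 107 times there, 344 times in WT injected, and 301 and 313 in the libraries labelled Irf4-/-. For mt-Co2 these counts were 207, 497, 464 and 485.

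Sequences nearly identical to these genes, most of them annotated as pseudogenes, were among the higher genes. Of the 102 higher genes 75 were protein-coding, 19 pseudogenes of 94 measured, 7 long noncoding of 207 measured, and 1 had no symbol. Copies that shared at least 50% of their 50-base words with a ribosomal protein messenger numbered 23 among the measured genes, and 13 of them were at least 2-fold higher in WT injected and 19 at least 1.5-fold higher. Their median log2 ratio was 1.19, where the ribosomal protein genes themselves had 0.30, and 0.10 in the pair labelled Irf4-/-. Rpl14-ps1, chosen after its values were seen, had 66 counts in the control library and 185 in the injected one, with 123 and 146 in the other libraries, so that WT control was the low library. At 3.14 CPM in WT control and 9.96 in WT injected, it met the minimum of 5 CPM only through WT injected, as did several other copies. That rule favours higher ratios, so the medians of the copies and of their parent genes are not on equal terms. All 4 nuclear copies of mitochondrial messengers were at least 2-fold higher (median 1.79, and 0.01 in the other pair), and their sum was 34.0 CPM in the WT control library and 116 in the WT injected one, with 102 and 101 in the libraries labelled Irf4-/-. Without near-identical copies and mitochondrial genes, a setting added after the data were seen, 82 genes were at least 2-fold higher and 80 lower. Reads that match a gene and its copy equally can be assigned either way, and the sources used here do not say how they were counted.

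**Figure D4:**
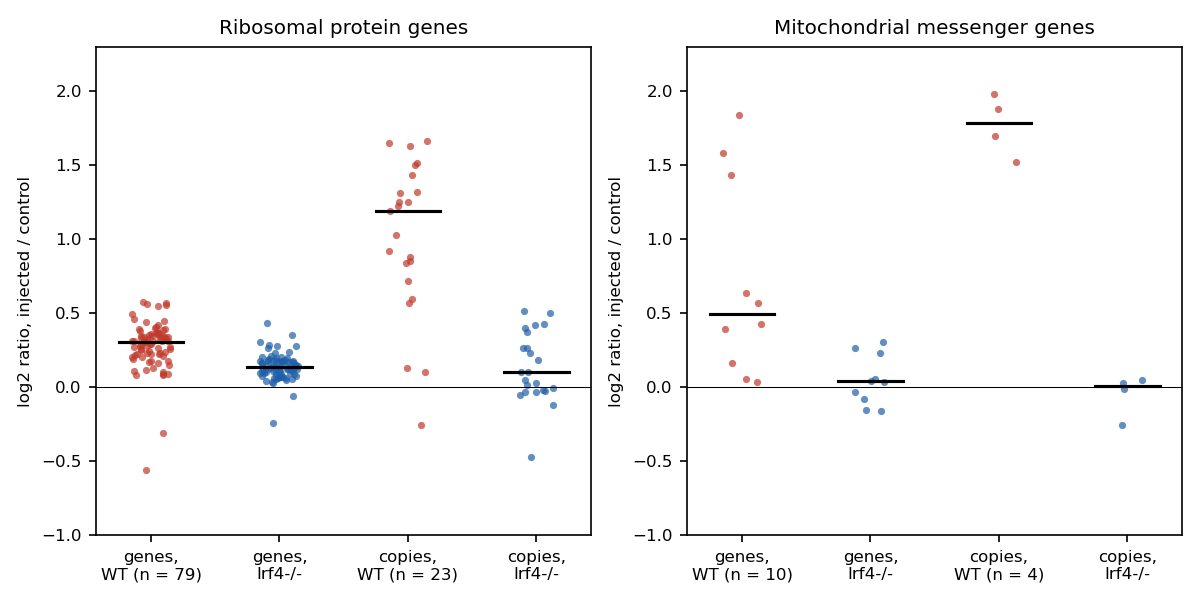
Points are log2 ratios of injected over control for ribosomal protein genes and their near-identical copies (left) and for mitochondrial messenger genes and theirs (right), red for the WT pair and blue for the pair labelled Irf4-/-, with black bars at the medians. Copies lie higher than the genes in the WT pair (medians 1.19 against 0.30 and 1.79 against 0.50) and near 0 in the other pair. Several ribosomal copies met the minimum level only through WT injected, which favours higher ratios in the WT pair.

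Of the 12 long noncoding genes with a 2-fold difference, Gm26917, chosen after its values were seen, had the most counts. There were 27630 counts in the control library and 6074 in the injected one, and 12810 and 2027 in the libraries labelled Irf4-/-, so the injected library was the lower of each genotype. By length, 27 of the 535 genes shorter than 1000 bp reached 2-fold upward (5.05%) and 4 downward (0.748%), where genes of 1000 to 2000 bp had 0.635% and 0.808%. Most of those 27 were pseudogenes or mitochondrial genes described above, such as Rpl14-ps1 (710 bp) and mt-Co3 (784 bp).

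The injection pair labelled Irf4-/- shares no library with the WT pair, so its values are set beside those of WT. Across the 9638 genes the log2 ratios of the pairs gave Pearson's r of 0.461 and Spearman's rho of 0.365, a description over genes, which are not independent replicates. Fewer genes differed in the other pair, with 13 of 9697 genes at least 2-fold higher (0.134%) and 21 lower (0.217%), and 142 and 116 at 1.5-fold (1.46% and 1.20%). Its counting intervals lay above 0 in 22.1% and below 0 in 18.9% of those genes. Of the 80 genes lower in WT injected 74 also had a ratio below 0 there (92.5%, against 47.4% of all genes), and 63 had a counting interval below 0 (78.8%, against 18.9%). Of the 102 higher genes 72 had a ratio above 0 (70.6%, against 52.6%) and 45 an interval above 0 (44.1%, against 22%). The median ratio of the lower genes was -1.19 in WT and -0.51 in the other pair, and that of the higher genes 1.25 and 0.24. Genes chosen for a large ratio in 1 pair tend to have a smaller one in any other, so these sizes are not compared further.

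Among protein-coding genes that averaged 5 CPM or more across all 4 libraries, which leaves out Trnp1, Ccdc28b and Hspa1a, genes with a wide gap between genotypes are given with the difference of both log2 ratios and its counting interval, which was not tested across animals. Slc15a2, a peptide transporter, had 664 and 1129 counts in the WT pair and 598 and 204 in the pair labelled Irf4-/-, a difference of 2.70 (2.43 to 2.97). For Socs2 and Pik3ip1 the differences were 2.58 (2.10 to 3.05) and 2.38 (1.88 to 2.88), and for Txnip 1.93 (1.88 to 1.98). In the downward direction Cx3cr1 differed by -1.43 (-1.60 to -1.27), and Eps8l1, an actin regulator with 62.5 and 23.1 CPM in WT and 44.3 and 44.7 in the other pair, by -1.44 (-1.66 to -1.23). Hba-a1 and Hbb-bs, globin genes whose copies may share reads, differed by -2.42 and -2.18, with the injected library labelled Irf4-/- the highest of the 4. Fosb, an immediate early factor, was at -0.33 in WT and -2.28 in the other pair.

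**Figure D5:**
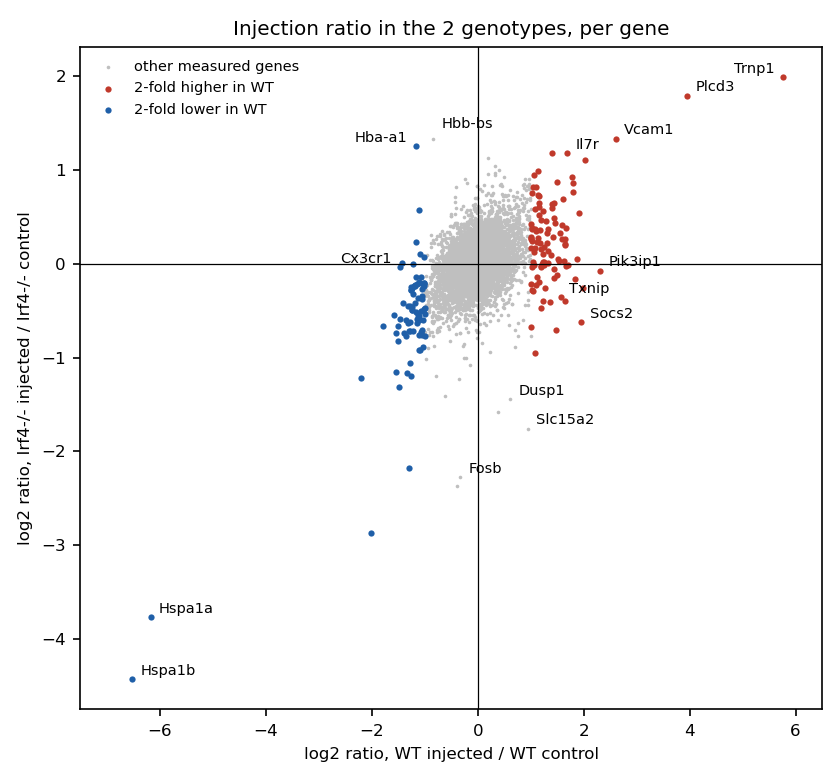
Each point is a gene measured in the WT pair, with its log2 ratio of WT injected over WT control on the horizontal axis and that of the pair labelled Irf4-/- on the vertical axis, red where at least 2-fold higher and blue where at least 2-fold lower in WT. Hspa1b and Hspa1a are far below 0 on both axes, while Socs2, Txnip and Pik3ip1 are above 0 on the WT axis alone and Hba-a1 and Hbb-bs lie on opposite sides of 0.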

How the data were processed

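Read counts per gene and FPKM values were deposited for 4 libraries of sorted splenic NK cells, 1 per group. The submitters' processing notes name TopHat, edgeR and the build mm10, with no role or order, and the counting tool, annotation and strand setting are among what the sources used here leave out. The counts are raw whole-number counts per gene, as deposited by the authors. The deposited FPKM were derived by the authors from these counts: each of the 72455 nonzero values gave back a whole gene length (tolerance 0.01 bp) when set against its count and library.

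Gene symbols came from GENCODE on GRCm38, which matched 34490 of 35275 identifiers and left 785 unmatched. Libraries were scaled with TMM factors (edgeR 4.0.16, R 4.3.3), and CPM, log2 ratios and Clopper-Pearson 95% counting intervals were computed in Python 3.11.15 with scipy 1.17.1. A prior count of 2, scaled to library size, entered every log2 ratio, and no prior count entered the intervals. A gene counted as higher or lower at a ratio of at least 2-fold, or 1.5-fold for gene lists, with an interval that excluded equality. No test across animals was run, because each group had 1 library. The script was tested on simulated counts.

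The members, the 47 gene lists (34 pathway and 13 cell marker lists, 1349 of 1359 entries matched, several genes in more than 1) and the rules were chosen with earlier results of these data known. The pattern for replication-dependent histone genes was corrected after the tables were read. Named genes were Irf4, the 25 protein-coding genes with the largest ratios in each direction without predicted genes or antigen receptor segments, up to 6 members per list by size of ratio, cell type markers by level, the 10 protein-coding genes with the largest gap between the pairs in each direction among those that averaged 5 CPM or more across all 4 libraries, and the 10 most abundant. Genes named otherwise are marked as chosen after their values were seen. Near-identical copies, defined after the data were seen, shared at least 50% of their 50-base words with a parent transcript. Promoters were read from a RefSeq table of GRCm38.p6. The alternatives were total-count, median-of-ratios (DESeq2 1.42.0) and upper-quartile scaling, other minimum levels, prior counts and folds, FPKM, and leaving gene families out of the library size.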

Additional observations from a re-analysis of the deposited data

Results flagged for a closer look

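In 11 genes the WT pair and the pair labelled Irf4-/- went opposite ways, each by at least 1.5-fold and each with a counting interval that excluded equality. The difference between the pairs was not tested, since each group had 1 library. It is given below as the WT log2 ratio minus that of the other pair.

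Of the 9 genes that were higher in WT injected and lower in the injected library labelled Irf4-/-, Dusp1, Socs2 and Tsc22d3 are known as inducible feedback genes. Slc15a2, a peptide transporter, differed by 2.7 and Socs2, the JAK-STAT inhibitor, by 2.58. Lamb3, a laminin chain, had 65 and 163 counts in the WT pair and 119 and 84 in the other, a difference of 2.18. At 3.09 CPM in WT control, Lamb3 met the minimum of 5 CPM in the WT pair only through WT injected. Dusp1, a phosphatase of MAP kinases, had 25.3 and 38.6 CPM in WT and 38.6 and 14.2 in the other pair, a difference of 2.05. The linker histones Hist1h1e and Hist1h1c differed by 2.04 and 1.39. Tsc22d3, the glucocorticoid-induced leucine zipper gene, differed by 1.69, Cxcr4, the CXCL12 receptor, by 1.6, and Rgs1, which dampens chemokine receptor signals, by 1.45. For Cxcr4 the injected library labelled Irf4-/- was the lowest of the 4 and WT injected the highest.

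The globin genes Hba-a1 and Hbb-bs, which mark red cell precursors, went the other way, by -2.42 and -2.18. Hba-a1 had 320 counts in WT control and 125 in WT injected, against 265 and 740 in the libraries labelled Irf4-/-.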

How the results depend on the processing

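The counts of 102 higher and 80 lower genes depended on the minimum level and the fold more than on scaling. Scaling by total counts left them at 102 and 80, median-of-ratios factors gave 107 and 76, upper-quartile factors 111 and 72. They were 116 and 77 with ribosomal protein, mitochondrial and heat shock genes left out of the library size, 107 and 83 or 97 and 78 with a prior count of 0.5 or 5, and 96 and 76 from FPKM plus 0.1. With no minimum they were 736 and 525, at 1 CPM 327 and 215, and at 20 CPM 34 and 28, and the construction of the setting, more or fewer low genes, accounts for those. A fold of 1.5 gave 403 and 408, and a fold of 3 gave 24 and 5, so that 82.8% of the calls at that size were upward against 56.0% at 2-fold. With protein-coding genes alone, a setting added after the data were seen, they were 75 and 74. Over the alternatives, 2384 values of single named genes stayed within their counting interval and 24 moved outside it. Of the 24, 11 moved under upper-quartile scaling. Under the library size without gene families 11 abundant genes with narrow intervals moved. Settings that changed only the minimum level could not move a gene's ratio, and their values are among those that stayed. No gene that was called at 1.5-fold reversed. Of the list medians 426 stayed within the 95% order-statistic range of the list, 11 moved and 1 reversed. For short lists the range ran from the lowest to the highest measured member instead. With 1 measured member it had no width, so that any change counted as moved or reversed. The reversed median was that of stroma and endothelium markers, at 0.54 from 1 measured member and -0.99 with no minimum. No paired analysis was possible because each group has 1 library, and for the same reason no replicate could be left out. Depth limits the genes of low level, whose counting intervals are the widest.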

Other observations

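Transcription factors of NK identity were close to level, with 3 of 32 measured genes at least 1.5-fold higher in WT injected, 1 lower and a median log2 ratio of 0.03. The higher genes were Rora and Ahr, named above, and Mef2c, a MADS-box factor with 42.4 CPM in WT control and 65.1 in WT injected (0.62, 0.49 to 0.74). GIMAP genes, GTPases of lymphocyte survival, had 0 of 8 beyond 1.5-fold in either direction and a median of 0.17.

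Among the 10 protein-coding genes with the highest mean CPM, Actb, the cytoskeletal actin gene often used as a reference, had 4719 CPM in WT control and 3370.1 in WT injected (-0.49), against 4306 and 4703 in the libraries labelled Irf4-/-. Ptprc, which encodes CD45, was close to level (-0.03, -0.04 to -0.02), and the translation elongation factors Eef1a1 and Eef2 were at 0.33 and 0.46. Lyz2, the lysozyme gene of macrophages and granulocytes, had 256 and 89 counts in the WT pair and 298 and 153 in the other. Of the 12 genes of the monocyte and macrophage list 4 were measured, and those besides Lyz2 went the other way or were near level. Csf1r, the receptor of macrophage growth factor, was at 1.10. Cd68, a lysosomal protein, was at 0.62 (0.29 to 0.97) and Ly6c2, a monocyte surface protein, at 0.07 (-0.01 to 0.16). Csf1r, at 4.38 CPM in WT control and 9.53 in WT injected, met the minimum of 5 CPM only through WT injected. That rule favours higher ratios.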
